A study of Mus musculus with 3 samples.

Results

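The epithelial alarmins Il33, Tslp and Il25 and the receptor chain particular to each of them, Il1rl1, Crlf2 and Il17rb, were followed in single cells of mouse nasal mucosa. These 6 genes were taken by symbol from the 55357 genes of the deposited feature lists, with earlier results of these data known, and all 6 were measured in every library. The question was which cells held the transcript of each ligand, which cells held its receptor, and how both differed between treatments.

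Mucosa came from C57BL/6J mice with no allele or transgene named in the labels, and per the series' design text males and females were equal in number in each group. The control group was given PBS intranasally. Mice of the papain group, the model of eosinophilic chronic rhinosinusitis, received 20 µg papain in the nose and PBS into the stomach. Papain is a plant cysteine protease that raises allergic inflammation at mucosal surfaces. Mice of the lonidamine group received the same papain and lonidamine (LND), a drug that inhibits hexokinase and the transport of pyruvate and lactate, at 10 mg/kg into the stomach. All animals of a group were pooled, so each group was 1 library, and the ages and the number of animals per pool are not given in the sources used here. No difference below has a replicate check. Higher and lower describe these 3 libraries, and the 95% intervals in square brackets reflect counting error alone.

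Alarmins are cytokines that barrier cells make and release when a surface is injured or meets a protease. IL-33 is stored in the nucleus of epithelial and stromal cells and acts on ST2, the product of Il1rl1, which pairs with the chain encoded by Il1rap and signals through Myd88. TSLP acts on the Crlf2 chain paired with the interleukin 7 receptor chain (Il7r) and signals through Jak1, Jak2 and Stat5. IL-25 comes mainly from tuft cells, chemosensory cells of the epithelium, and acts on Il17rb paired with Il17ra. All 3 ligands act on group 2 innate lymphoid cells (ILC2) and type 2 helper T cells, which answer with Il5, Il13 and Areg.

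The matrices held unique molecular identifiers (UMIs), each standing for a captured transcript, and deposited totals were 82399462 (PBS), 86197965 (papain) and 89164040 (lonidamine). After filtering, 9378, 10524 and 11887 cells were kept with a median of 7353 (PBS), 6547 and 5823 UMIs, so depth fell from the PBS to the lonidamine library. Median mitochondrial shares were 2.38%, 3.80% and 3.42%. Among cells whose sex could be assigned, 56.8%, 73.2% and 83.1% were female, and library pairs shared 22 to 38 cell barcodes. Although the library name of the papain sample is Fibroblast, cells of every tissue compartment were found in it, and its title and treatment mark it as the model. Cells were gated by fixed marker lists that contain none of the 6 genes, and 27130 of 31789 cells (85.3%) entered 1 of 34 gates. A gate holds cells like the type it is named for and is a range, not a type: in the leading gate of each of the 6 genes, between 5.93% (fibroblast) and 42.1% (tuft) of the cells stood at the lowest number of markers that admits a cell, and in the Alox12e Gp2 Clca1 epithelial gate 59.8%. The eosinophil gate, for the cell that names the disease model, was empty in all 3 libraries. Levels are CPM, the UMIs of a gene in every 1000000 UMIs of the library or gate. The chemistry counts 3′ ends, so these levels do not depend on transcript length, although capture still differs between genes.

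Il33, Tslp and Il1rl1 stood at least 2-fold higher in the papain than in the PBS library, 3 of the 6 genes, where 10.2% of the 22862 genes with enough counts did so. Il25 was the only 1 of the 6 at least 2-fold lower, against 5.92% of all genes. Crlf2 and Il17rb differed by less than 2-fold, to the lower and the higher side. Between the lonidamine and papain libraries none of the 6 differed by 2-fold, where 2.90% of 22947 genes were that much higher and 2.08% that much lower. The median log2 ratio of papain over PBS was 1.11 for the 6 genes and -0.02 for all genes, and that of lonidamine over papain was 0.17 for the 6. These sums are those of whole tissue, in which more cells of a type and more transcript per cell cannot be told apart, so the levels within gates follow each library total.

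**Figure D1:**
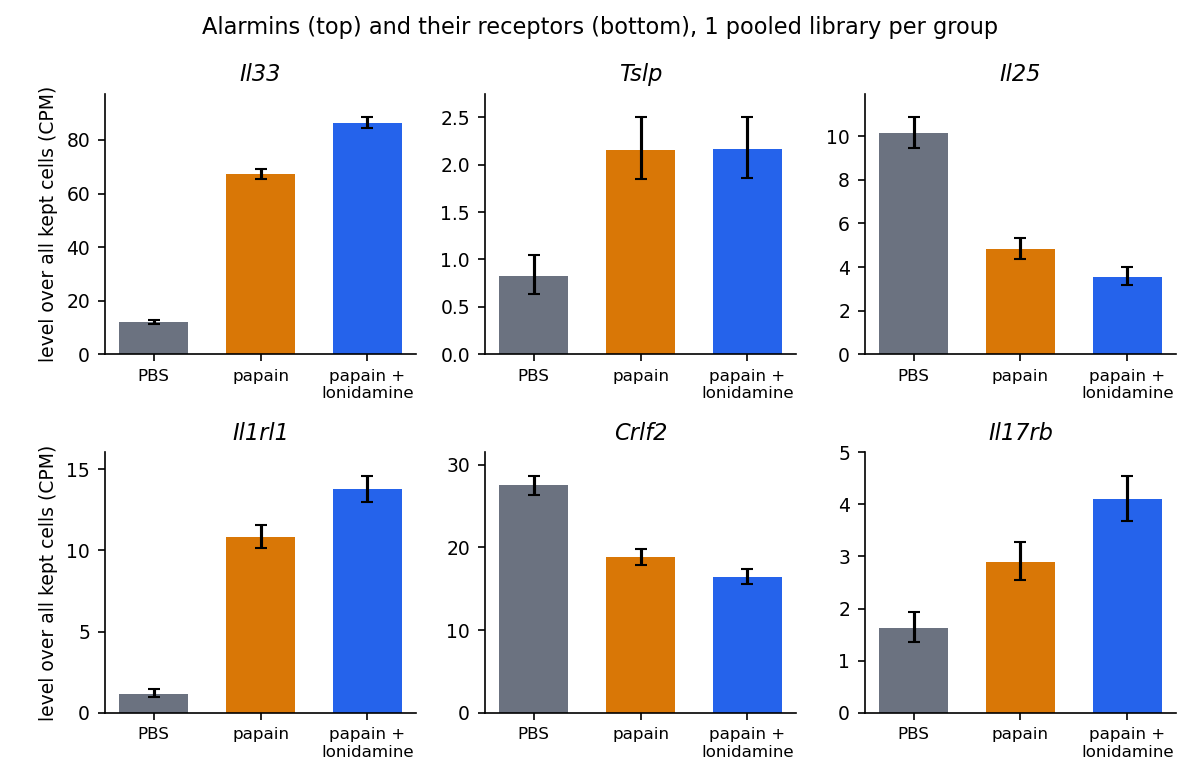
Level of each ligand (top row) and receptor (bottom row) over all kept cells, in CPM on linear axes that start at 0, with 1 pooled library per bar and 95% counting intervals. Il33 and Il1rl1 stand lowest in the PBS library, Il25 and Crlf2 highest.

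Il33 (ENSMUSG00000024810) was the most abundant alarmin. Its transcript was counted 971 times in the PBS library, 5577 times in the papain library and 7353 times in the lonidamine library, or 12.1, 67.3 and 86.5 CPM. A UMI of Il33 was found in 342 (3.65%), 1444 (13.7%) and 1766 (14.9%) cells. The PBS library was thus low and the other libraries high, with a log2 ratio of 2.47 [2.37, 2.57] for papain over PBS, which is 5.54-fold, and of 0.36 [0.31, 0.41] for lonidamine over papain. The first difference was 2.39 [2.26, 2.53] in female and 2.73 [2.54, 2.93] in male cells, of the same sign but with intervals that did not overlap. The second was 0.052 [-0.010, 0.11] in female and 1.01 [0.90, 1.12] in male cells, so the pooled value lies between them, and the difference between the sexes was not tested.

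Epithelial cells held most of it. Gates of epithelial types contained 69.1% of the Il33 UMIs in the PBS library, 82.6% in the papain library and 81.4% in the lonidamine library, while they made up 20.6%, 32.6% and 31.9% of the cells. Stromal and vascular gates held 4.84%, 3.55% and 2.56% and immune gates less than 1% in each. Cells with no gate held 15.2%, 6.98% and 10.7%.

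**Figure D2:**
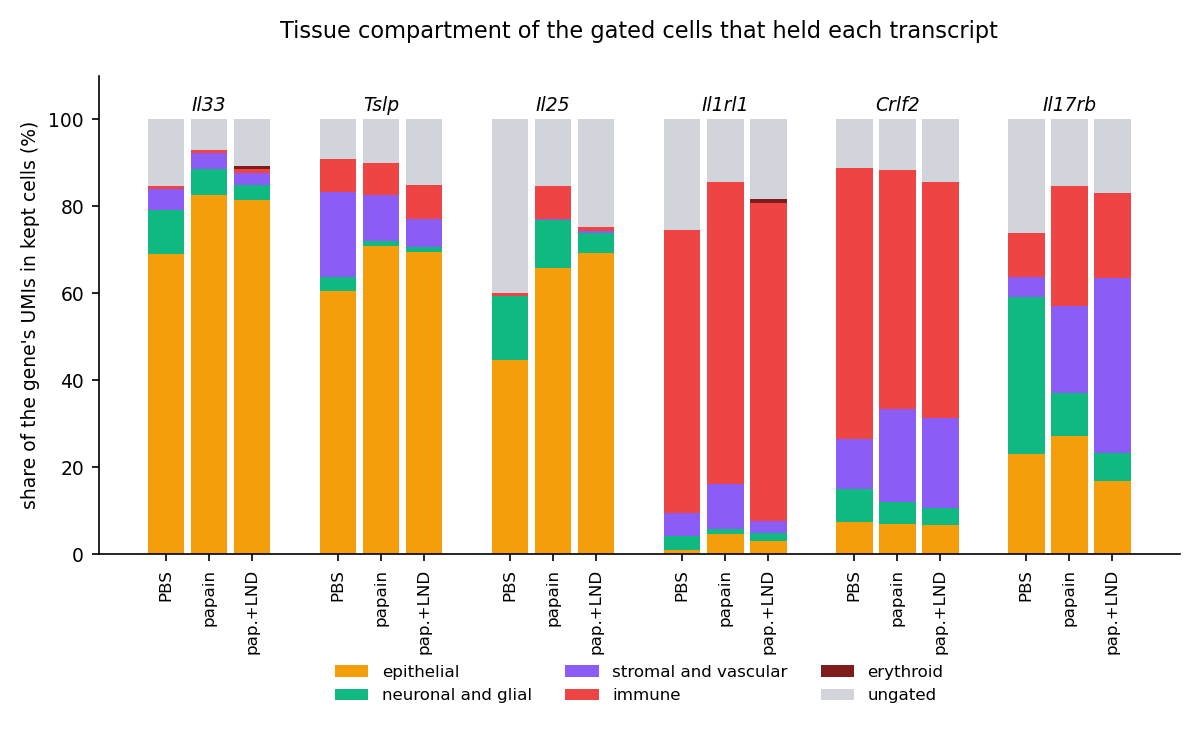
Share of each gene's UMIs that lay in epithelial, neuronal and glial, stromal and vascular, immune, erythroid and ungated cells, 1 bar per library, each bar adding up to 100%. Ligand UMIs lie mostly in epithelial and ungated cells, Il1rl1 and Crlf2 UMIs mostly in immune cells, and Il17rb UMIs in all compartments except erythroid cells.

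Sustentacular cells, which support and detoxify for the olfactory neurons, were the leading source. The gate had 315, 652 and 908 cells with 316 (PBS), 2141 (papain) and 3411 (lonidamine) Il33 UMIs, which were 32.5%, 38.4% and 46.4% of all Il33 in their library. The level within the gate was 72.3, 267 and 326 CPM, a log2 ratio of 1.88 [1.71, 2.06] for papain over PBS and 0.29 [0.21, 0.37] for lonidamine over papain. At least 1 UMI was found in 29.5%, 62.7% and 61.0% of these cells, and in 14.3%, 33.5% and 38.8% once each cell was thinned to 2000 UMIs. In this gate 9.05% of 13167 genes were at least 2-fold higher in papain than in PBS.

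Mature olfactory neurons, a type that is not a known source of alarmins, served as the background for shares of cells with a UMI. There Il33 was found in 0.928%, 3.77% and 3.29% of cells where the median cell had 7692, 7175 and 6684 UMIs, and sustentacular cells had medians of 13652, 12449 and 10922. Thinned to 2000 UMIs the neuron shares were 0.281%, 1.45% and 1.32%, below the sustentacular shares in every library. Those neuron-gate cells that held Il33 also held many UMIs of the sustentacular marker list, with medians of 21.5, 143.5 and 42 against 0, 1 and 1 in the neuron-gate cells without Il33.

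Within the sustentacular gate Il33 followed Muc2, a secreted mucin gene that is in none of the marker lists. Cells with a Muc2 UMI were 71 of 315 (22.5%), 422 of 652 (64.7%) and 603 of 908 (66.4%). They held 228, 2004 and 3238 Il33 UMIs at 198, 364 and 448 CPM, while the gate's cells without Muc2 held 88, 137 and 173 at 27.4, 54.6 and 53.4 CPM. The ratio of papain over PBS was 0.88 [0.68, 1.09] with Muc2 and 0.99 [0.60, 1.40] without, both below the 1.88 of the whole gate, beside the larger share of Muc2 cells in the papain library. Lonidamine over papain was 0.30 [0.22, 0.38] with Muc2 and -0.03 [-0.36, 0.30] without. After the thinning used for the whole gate, Il33 was found in 31.9% (PBS), 45.3% (papain) and 51.8% (lonidamine) of cells with Muc2. Without Muc2 the thinned shares were 7.81%, 7.72% and 7.81%. In cells without Muc2 the papain library was thus above PBS by level but not by thinned share. This split was chosen after the values were seen, and a Muc2 UMI is found more readily in a deep cell.

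Basal epithelial cells, the stem cells of the surface, held the next most Il33 UMIs among the gates in every library. Their 888, 1721 and 1851 cells held 233, 1271 and 1347 Il33 UMIs at 24.3 (PBS), 79.2 (papain) and 87.1 CPM (lonidamine). Papain over PBS was 1.70 [1.50, 1.91], in a gate where 7.73% of 15000 genes were at least 2-fold higher, and lonidamine over papain 0.14 [0.03, 0.25]. The share of cells with a UMI was 10.0%, 26.4% and 28.0%. A gate of Alox12e, Gp2 and Clca1 epithelium, which is not tied to a textbook type, had only 2 cells in the PBS library and 223 and 190 in the others. It held 836 papain and 806 lonidamine UMIs, 15.0% and 11.0% of the library's Il33, at 247 and 312 CPM, and 77.6% and 74.7% of its cells had a UMI.

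In the papain library the levels ran from sustentacular (267 CPM) and Alox12e Gp2 Clca1 cells (247), whose intervals overlap, through multiciliated (111) and basal cells (79.2) to fibroblasts (50.7) and secretory cells (34.7). In the PBS library sustentacular (72.3), multiciliated (68.5) and fibroblast (47.1) levels each overlapped the next. Papain over PBS lay above 0 with its interval in 9 of the 10 gates with enough counts, among them secretory cells (2.14 [1.33, 3.22] on 11 PBS and 198 papain UMIs), ionocytes (1.31 [0.75, 1.88]) and multiciliated cells (0.69 [0.12, 1.29]). The mature olfactory neurons used as background were also among the 9, so the count is not one of source cells alone. Neuronal and glial gates together held 98 Il33 UMIs in 4110 PBS cells and 333 in 2535 papain cells. The secretory value was not seen by clusters: the secretory cluster, which took 54.3% of the gate's cells, held 62 PBS and 173 papain UMIs at a ratio of -0.10 [-0.52, 0.35]. The exception among the gates was the fibroblast gate with 44, 127 and 104 UMIs, where papain over PBS was 0.10 [-0.40, 0.64] and lonidamine over papain -0.51 [-0.90, -0.13]. The fibroblast level of Il33 therefore did not follow the epithelial pattern in these libraries, and its difference from the epithelial gates was not tested. This does not extend to all stroma: stromal and vascular gates together held 47, 198 and 188 Il33 UMIs in 545, 1177 and 1478 cells. In the lonidamine library 61 further UMIs lay in 7 of the 59 cells of the erythroid gate, whose cells were 3 and 5 in the other libraries.

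**Figure D3:**
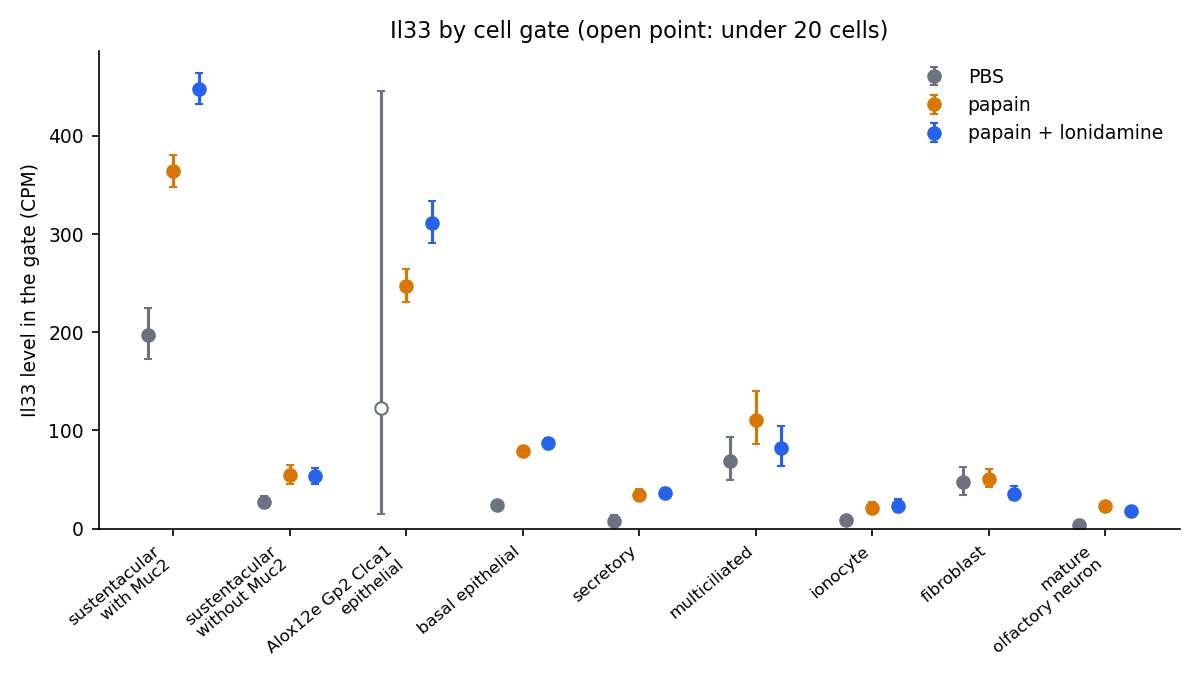
Il33 level (CPM, linear axis) in the sustentacular gate split by a Muc2 UMI, in other epithelial gates, fibroblasts and mature olfactory neurons, with 95% counting intervals. Sustentacular cells with Muc2 stand highest in every library (198, 364 and 448 CPM), and fibroblasts are level between PBS and papain (47.1 and 50.7 CPM).

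Unsupervised clusters, named by the same markers, divided the epithelium more finely. The sustentacular cluster led by Muc2 had 155, 482 and 622 cells at 250, 367 and 483 CPM of Il33, the Krt15-rich basal cluster had 219, 827 and 972 cells at 69.0, 115 and 135 CPM, and the Alox12e cluster had 32, 406 and 428 cells at 169, 234 and 301 CPM. Each of these 3 clusters held more cells and more Il33 per UMI in the papain than in the PBS library. When the clusters were weighted as in the PBS library, the library's log2 ratio of 2.47 became 1.07, and it became 1.82 when gates were weighted in that way. Cell mix and level per cell thus both moved with the library total.

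Tslp (ENSMUSG00000024379) was scarce. It was counted 66, 179 and 184 times in the PBS, papain and lonidamine libraries, or 0.825, 2.16 and 2.16 CPM, and was found in 59 (0.629%), 151 (1.43%) and 138 (1.16%) cells. The papain and lonidamine libraries were level and the PBS library lower, with log2 ratios of 1.38 [0.97, 1.82] and 0.00 [-0.30, 0.31]. In female cells papain over PBS was 0.89 [0.37, 1.46] and in male cells 2.19 [1.38, 3.13].

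More than any other gate, basal epithelial cells held it: 34 (51.5%), 102 (57.0%) and 115 (62.5%) of the Tslp UMIs lay there. The level in the gate was 3.55, 6.35 and 7.44 CPM, a log2 ratio of 0.83 [0.27, 1.45] for papain over PBS that was 0.074 in female cells alone. A Tslp UMI was found in 3.04%, 4.65% and 4.16% of basal cells, against 0.0331%, 0.0724% and 0.132% of mature olfactory neurons, which held 1, 1 and 2 UMIs. Thinned to 2000 UMIs the basal shares were 0.676%, 1.11% and 1.34%. Fibroblasts held 5, 6 and 3 UMIs and smooth muscle cells 5, 3 and 3, so that stromal and vascular gates made up 19.7%, 10.6% and 6.52% of all Tslp. With so few counts, every gate that neighbours basal cells in order of level has an interval that overlaps theirs.

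The Krt15-rich basal cluster held 29, 90 and 69 of these UMIs at 11.0, 11.0 and 8.94 CPM. Its level was thus close in the PBS and papain libraries (log2 ratio -0.01), where its cells were 219 and 827. Of the lonidamine library's Tslp, 40 UMIs (21.7%) lay in a squamous cluster of 153 cells that had 12 cells in the papain library and none in the PBS library. With clusters weighted as in the PBS library the difference of 1.38 between papain and PBS became 0.38. In the basal gate Tslp was found in 6.74%, 6.39% and 5.59% of cells with Il33 and in 2.63%, 4.03% and 3.60% of cells without it, and deeper cells are more likely to show both.

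Il25 (ENSMUSG00000040770) had the opposite order. The PBS library held 812 UMIs, the papain library 400 and the lonidamine library 303, or 10.2, 4.82 and 3.56 CPM, with log2 ratios of -1.07 [-1.25, -0.90] and -0.44 [-0.66, -0.22]. The cells that held it were 58, 103 and 76, so the PBS library had fewer cells with more transcript each, 14 UMIs per detecting cell against 3.88 and 3.99. The highest cell held 86, 33 and 24. By sex, papain over PBS was -1.44 in female and -0.40 in male cells.

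Tuft cells held nearly all of it. The tuft gate, built on Trpm5, Pou2f3, Avil, Sh2d6, Gnat3, Chat and Dclk1, had 17, 76 and 52 cells with 359 (44.2%), 159 (39.8%) and 110 (36.3%) Il25 UMIs at 2878, 381 and 403 CPM. A UMI was found in 82.4%, 64.5% and 51.9% of its cells, against 0.431%, 0.579% and 0.263% of mature olfactory neurons. The PBS gate has under 20 cells, so no ratio is read from it. As 42.1% of the gate's cells stood at the marker minimum, the tuft cluster, a choice made after values were seen, gives the fuller account: its 36, 117 and 93 cells held 779 (95.9%), 366 (91.5%) and 268 (88.4%) of the Il25 UMIs. Of the 119 PBS UMIs in the mature olfactory neuron gate, 104 came from 4 cells of this cluster, as did all 88 papain UMIs of the sustentacular gate from 8 cells.

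Per cell of the tuft cluster the mean was 21.6 UMIs in the PBS library, 3.13 in the papain library and 2.88 in the lonidamine library, and the median 13, 1 and 1, at nearly equal median depths of 4135, 4116 and 4135 UMIs. The share with a UMI was 88.9%, 66.7% and 59.1%, and 24 of 36, 23 of 117 and 18 of 93 cells held 5 or more. The level was 3305, 361 and 401 CPM, a log2 ratio of -3.19 [-3.38, -3.01] for papain over PBS, which is 9.15-fold lower, and 0.15 [-0.08, 0.38] for lonidamine over papain. The cells of both libraries overlapped, as the highest papain cell held 33 UMIs, within the PBS range of 0 to 86. Tuft cells themselves were more frequent in the papain library, and library totals therefore differed less than levels per cell.

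Defining genes of tuft cells did not share the difference in this cluster. Papain over PBS was -0.06 [-0.38, 0.28] for Trpm5, the taste transduction channel, -0.11 [-0.38, 0.18] for Avil, an actin regulator, and 0.17 [-0.38, 0.80] for Pou2f3, the lineage transcription factor. Sh2d6 (0.89), Gnat3 (0.57), Chat (0.49) and Dclk1 (2.01) had ratios above 0, although the interval of Chat included 0. These genes named the cluster and are given only to set the Il25 value beside them.

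**Figure D4:**
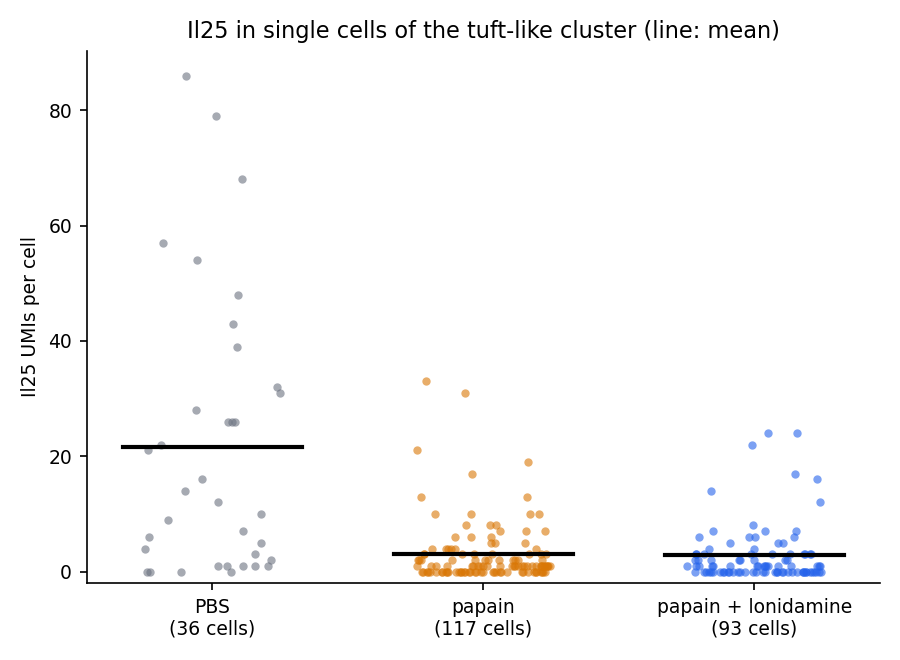
Il25 UMIs in each cell of the tuft cluster (points, spread sideways to be seen) with the mean of each library (line), on a linear axis. PBS cells reach 86 UMIs with a mean of 21.6, papain cells 33 with a mean of 3.13 and lonidamine cells 24 with a mean of 2.88.

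Il1rl1 (ENSMUSG00000026069) encodes ST2, the receptor for IL-33, and had the largest ratio of the 6 genes between the PBS and papain library totals. It was counted 94, 900 and 1172 times in the PBS, papain and lonidamine libraries, or 1.18, 10.9 and 13.8 CPM, and found in 43 (0.459%), 169 (1.61%) and 268 (2.25%) cells. Papain over PBS was 3.20 [2.90, 3.53], which is 9.19-fold, and lonidamine over papain 0.35 [0.22, 0.47]. The first value was 2.98 in female and 2.56 in male cells. With clusters weighted as in the PBS library it became 2.25, and lonidamine over papain turned to -0.15. Immune gates held 64.9%, 69.3% and 73.2% of the UMIs.

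The gene has a distal start site, known for its use in blood cells, and a proximal start site, known from fibroblasts. Both are shown because the receptor was counted in lymphocytes and in fibroblasts, although counts of 3′ ends tell neither which start was used nor whether the membrane or the soluble form was made. The windows are from RefSeq on build GRCm38.p6, while the submitters' notes name GRCm39 for the counts, and each covers 250 bases before to 50 bases after the start on the forward strand. The distal window is chr1:40429320-40429619 and the proximal one chr1:40439379-40439678, 10059 bases further on. Capitals mark 4 words of 6 letters on either strand, all with GATA at their core. They are the word AGATAA and its variant ending in G, which is AGATAG, then the word TGATAA and the variant of it ending in G, which is TGATAG. Factors of the GATA family, with the ILC2 and T helper factor Gata3 among them, are known to bind such words. No 2 marked words overlap.
Il1rl1 distal window: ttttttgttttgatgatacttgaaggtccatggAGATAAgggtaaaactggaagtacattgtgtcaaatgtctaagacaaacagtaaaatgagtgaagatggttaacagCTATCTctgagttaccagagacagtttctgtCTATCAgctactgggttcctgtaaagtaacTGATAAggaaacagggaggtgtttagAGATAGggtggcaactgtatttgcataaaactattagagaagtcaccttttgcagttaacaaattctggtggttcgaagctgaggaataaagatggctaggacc
Il1rl1 proximal window: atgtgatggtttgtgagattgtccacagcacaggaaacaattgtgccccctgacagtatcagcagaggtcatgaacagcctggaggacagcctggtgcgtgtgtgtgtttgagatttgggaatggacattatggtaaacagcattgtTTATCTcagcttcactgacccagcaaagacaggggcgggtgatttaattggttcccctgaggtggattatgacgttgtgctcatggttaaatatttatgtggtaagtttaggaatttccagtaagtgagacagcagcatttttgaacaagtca
The distal window holds 5 of these words, 217, 141, 110, 80 and 54 bases before the start (the second and the third on the reverse strand), and the proximal window 1, on the reverse strand 103 bases before it. Of 32851 windows of the same length, 29.8% held at least 1 such word and 18 (0.0548%) at least 5. A match of letters is not a bound site. Windows for 4 of the 6 genes were matched by symbol.

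In the papain and lonidamine libraries ILC2 carried it at the highest level of any gate with at least 20 cells. The gate had 11, 42 and 68 cells with 40 (42.6%), 308 (34.2%) and 443 (37.8%) of the Il1rl1 UMIs. At 702, 1532 and 1414 CPM, 81.8%, 95.2% and 95.6% of its cells had a UMI, and 65.3%, 86.9% and 89.0% after thinning to 2000 UMIs. Mature olfactory neurons had a UMI in 0.0663%, 0.0724% and 0.197% of cells. The PBS gate holds 11 cells, so only lonidamine over papain is read, and it was -0.12 [-0.33, 0.10]. The gate made up 0.117%, 0.399% and 0.572% of kept cells.

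The ILC2 cluster, which also took cells that the gate left out, had 19, 69 and 114 cells with 58 (61.7%), 538 (59.8%) and 686 (58.5%) Il1rl1 UMIs at 758, 1368 and 1259 CPM. With 19 PBS cells the cluster too is under the minimum for a papain over PBS ratio. Among ILC2-gate cells with Il1rl1, Gata3 was found in 9 of 9, 38 of 40 and 65 of 65 cells. Areg, an epidermal growth factor family member, was found in 7, 38 and 53 of them, and Il13 in 0, 21 and 41. Gata3, Il5 and Il13 are markers of the gate, so their presence there was in part required.

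Alpha beta T cells came next. Their 315, 386 and 384 cells held 14, 258 and 325 UMIs at 11.8, 156 and 211 CPM, and 2.54%, 10.9% and 15.6% of cells had a UMI (1.40%, 9.62% and 14.4% after thinning). Papain over PBS was 3.67 [2.94, 4.61] and lonidamine over papain 0.44 [0.20, 0.68], where 6.89% of 9649 genes in this gate were at least 2-fold higher in papain than in PBS. The alpha beta T cluster, which took 62.1% of the gate's cells, held 7, 138 and 308 Il1rl1 UMIs. Its ratios were 3.08 [2.09, 4.51] and 1.23 [0.94, 1.53], so lonidamine over papain was larger by cluster than by gate. Cell numbers in the gate were close, while the cells with Il1rl1 in it were 8, 42 and 60. Regulatory T cells, taken as T cells with a Foxp3 UMI, numbered 10, 57 and 56 and held 3, 66 and 96 UMIs. T cells with no Foxp3 UMI held 11, 192 and 229 at 9.59, 136 and 178 CPM, and 22.9% of the papain value there came from a cell with 44 UMIs.

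In the papain library 64.3% of T cells with Il1rl1 also had Gata3, against 25.3% of T cells without it. Il13 was found in 10 of these 42 cells and Foxp3 in 20, and in the lonidamine library in 15 and 28 of 60. Of the 8 Il1rl1-positive T cells of the PBS library, none had Il13 and 2 had Foxp3. The counts thus show Il1rl1 in cells of the alpha beta T gate with and without Foxp3 transcript. The median cell of this gate also held 4, 8 and 9 UMIs of the ILC2 marker list. As the ILC2 gate admits no cell with a Cd3d, Cd3e or Cd3g UMI, ILC2 with such a UMI cannot be told apart from T cells here.

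Fibroblasts held 4, 89 and 24 Il1rl1 UMIs in 2, 11 and 8 cells. The papain value was high, but 44.9% of it came from a cell with 40 UMIs, and the gate's level of 4.28, 35.5 and 8.20 CPM rests on these few cells. Mast cells, known carriers of ST2, were 0, 4 and 4 in number and held 33 papain and 20 lonidamine UMIs. Basophils held 1, 1 and 23 UMIs in 13, 8 and 6 cells. Tuft cells had none in any library, a count of 0 in 17, 76 and 52 cells that allows a share of up to 17.6%, 3.95% and 5.77% of cells with a UMI.

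Crlf2 (ENSMUSG00000033467), the TSLP receptor chain, was the most widely carried receptor. It was counted 2199, 1559 and 1399 times in the PBS, papain and lonidamine libraries, or 27.5, 18.8 and 16.5 CPM, and found in 1338 (14.3%), 1156 (11.0%) and 1087 (9.14%) cells. The PBS library was highest, with a log2 ratio of -0.55 [-0.64, -0.45] for papain over PBS and -0.19 [-0.30, -0.09] for lonidamine over papain. The first value was -0.19 in female and -1.09 in male cells, and -0.066 when every cell was given the same weight. Immune gates held 62.2%, 55.0% and 54.2% of the UMIs and stromal and vascular gates 11.5%, 21.4% and 20.7%.

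Macrophages held most in the PBS library. Their 328, 347 and 351 cells carried 555 (25.2%), 214 (13.7%) and 188 (13.4%) UMIs at 215, 124 and 121 CPM. Between papain and PBS the log2 ratio was -0.80 [-1.03, -0.57] and between lonidamine and papain -0.03 [-0.33, 0.25]. A UMI was found in 70.1%, 40.6% and 35.3% of cells at median depths of 7423, 4978 and 4362 UMIs, and in 34.7%, 21.4% and 21.3% after thinning, so the difference remained at equal depth. Mature olfactory neurons had a UMI in 2.29%, 1.52% and 1.12% of cells, or 0.542%, 0.340% and 0.307% after thinning.

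Monocytes were 370, 86 and 138 cells with 344, 64 and 53 UMIs at 146, 161 and 82.4 CPM. Their level was close between PBS and papain while the number of cells was lower. Neutrophils, with 92, 225 and 193 UMIs at 152, 179 and 119 CPM, had ratios of 0.23 [-0.13, 0.60] and -0.58 [-0.87, -0.30]. Dendritic cells, on which TSLP is known to act, held 119, 64 and 105 UMIs at 201, 118 and 136 CPM, with papain over PBS at -0.76 [-1.23, -0.32]. Blood endothelial cells held 166, 192 and 155 at 72.2, 62.0 and 50.1 CPM and alpha beta T cells 126, 185 and 112 at 107, 112 and 72.8 CPM.

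Of 18 gates with enough counts, Crlf2 was lower in papain than in PBS with an interval below 0 in 4 (macrophage, dendritic, fibroblast and basal epithelial) and higher in none. Lonidamine over papain was below 0 in 4 other gates (neutrophil, monocyte, alpha beta T and lymphatic endothelial) and above 0 in none. Basal cells, the gate with most Tslp, held 130, 69 and 49 Crlf2 UMIs at 13.6, 4.30 and 3.17 CPM, a ratio of -1.65 [-2.10, -1.23] for papain over PBS where 8.11% of the gate's genes were at least 2-fold lower. In order of level, the leading immune gates of each library overlapped one another: macrophage (215 CPM) and dendritic (201) in PBS, neutrophil (179) and monocyte (161) in papain, dendritic (136) and macrophage (121) in lonidamine.

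The partner chain of Crlf2, Il7r, was found in 31.3%, 19.9% and 21.0% of macrophages with Crlf2 and in 8.16%, 6.31% and 11.5% of those without. In ILC2, 5 of 6, 21 of 23 and 20 of 20 Crlf2-positive cells had Il7r, but so did 94.7% (papain) and 89.6% (lonidamine) of ILC2 without Crlf2. Il7r itself was counted 3063, 2181 and 2524 times, a papain over PBS ratio of -0.54.

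Il17rb (ENSMUSG00000015966), the IL-25 receptor chain, was counted 130, 240 and 348 times in the PBS, papain and lonidamine libraries, or 1.63, 2.89 and 4.09 CPM, in 100, 184 and 238 cells. Log2 ratios were 0.83 [0.52, 1.15] and 0.50 [0.26, 0.74], and the first became 0.26 with gates and 0.11 with clusters weighted as in the PBS library. Its distribution also differed between libraries, as did the cell mix. Neuronal and glial gates held 36.2%, 10.0% and 6.32% of the UMIs and 43.8%, 24.1% and 21.8% of the cells. Stromal and vascular gates held 4.62%, 20.0% and 40.2% of the UMIs and 5.81%, 11.2% and 12.4% of the cells. Mature olfactory neurons had a UMI in 0.895%, 0.869% and 0.855% of cells, at 1.20, 1.09 and 1.22 CPM, a level that was flat and is read as background. These neurons were 3017, 1381 and 1520 cells.

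ILC2 and tuft cells carried the highest levels. The ILC2 gate held 3, 40 and 45 UMIs at 52.6, 199 and 144 CPM, with a UMI in 3 of 11, 21 of 42 and 27 of 68 cells. Lonidamine over papain was -0.47 [-1.12, 0.18]. In the papain library Il17rb was found in 21 of the 40 ILC2-gate cells with Il1rl1 and Crlf2 in 22, and in the lonidamine library in 27 and 20 of 65, so receptors of different alarmins lay in the same cells.

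Tuft cells held the receptor chain beside its own ligand. The tuft gate had 22, 37 and 32 UMIs at 176, 88.6 and 117 CPM, and in the tuft cluster 43, 58 and 51 UMIs made 182, 57.2 and 76.3 CPM. In the cluster papain over PBS was -1.68 [-2.27, -1.07], of the same sign as Il25 there, and lonidamine over papain 0.42 [-0.16, 0.99]. Of 14, 49 and 27 tuft-gate cells with Il25, 9, 16 and 9 also had Il17rb. These were 64.3%, 32.7% and 33.3%, against 66.7%, 37.0% and 56.0% of tuft-gate cells without Il25.

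Fibroblasts had their highest Il17rb level in the lonidamine library. They held 6, 39 and 109 Il17rb UMIs at 6.42, 15.6 and 37.2 CPM, with a UMI in 5.08%, 6.95% and 12.6% of cells (1.38%, 2.66% and 6.18% after thinning). The papain over PBS ratio was 1.18 [0.03, 2.81], in a gate where 8.72% of genes were at least 2-fold higher, and lonidamine over papain was 1.25 [0.72, 1.82]. No fibroblast held more than 5 UMIs in the lonidamine library. Smooth muscle cells held 0, 7 and 27 UMIs, of which 13 of the last were in a single cell. The intervals cover counting error only, and the animals behind the fibroblasts are not known.

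**Figure D5:**
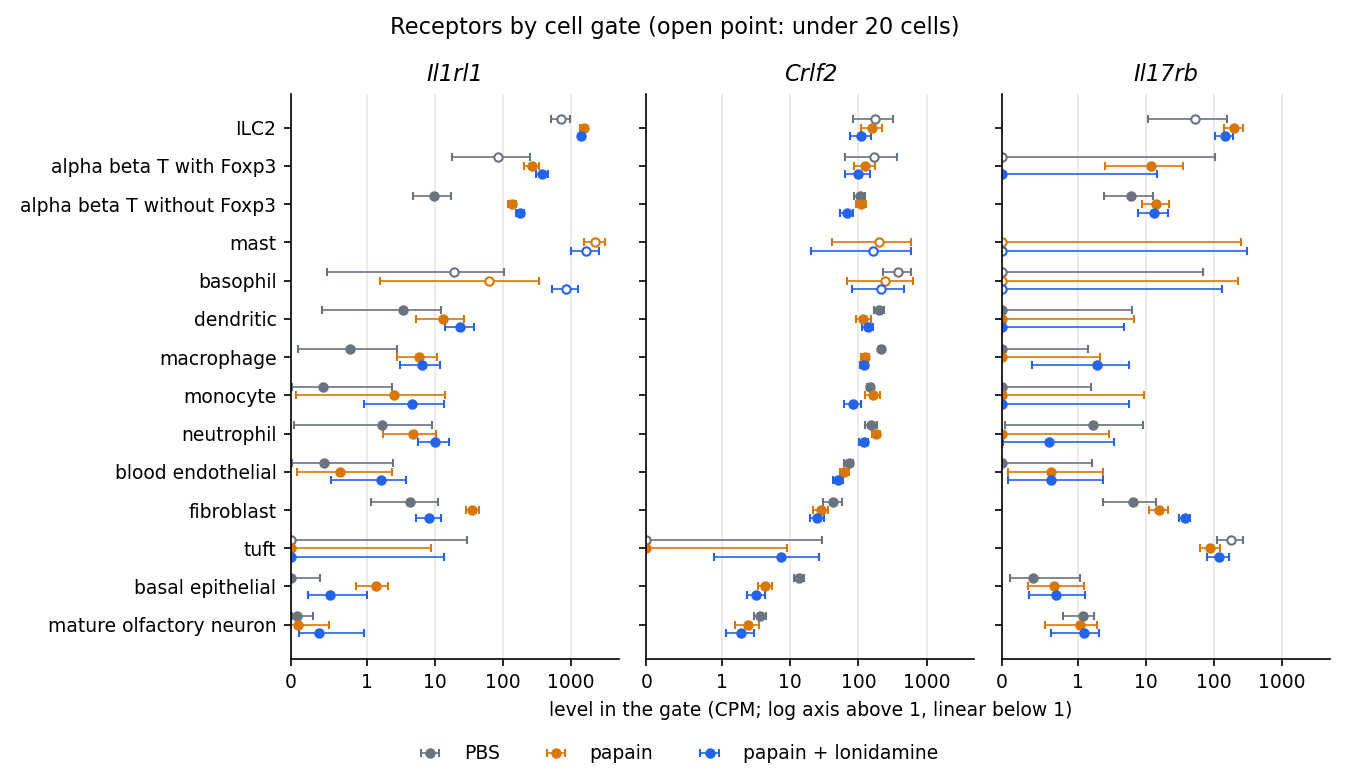
Level of each receptor gene in immune, stromal and epithelial gates and mature olfactory neurons (CPM, log axis above 1 and linear below), with 95% counting intervals and open points for gates under 20 cells. Il1rl1 is highest in ILC2 (1532 CPM in papain) and mast cells, and Il17rb in ILC2 and tuft cells (199 and 88.6 CPM in papain). In the immune gates shown with at least 20 cells, Crlf2 runs from 67.7 CPM (T cells without Foxp3, lonidamine) to 215 CPM (macrophages, PBS).

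Other genes of the pathway came from a list of 23 shared chains, signal carriers, inhibitors and effector cytokines. Of 22 with enough counts, 8 were at least 2-fold higher in papain than in PBS and none lower, against 10.2% and 5.92% of all genes, and the list's median log2 ratio was 0.59 against -0.02 for all genes. Between lonidamine and papain 0 of 22 passed in either direction, against 2.90% and 2.08% of all genes, with a median of 0.08. Among the shared chains Il1rap, the partner of ST2, was counted 388, 845 and 922 times (papain over PBS 1.07 [0.90, 1.25]), and Il17ra, the partner of Il17rb, 1856, 2268 and 2632 times (0.24). Only 0, 2 and 5 of the Il1rap UMIs lay in the ILC2 gate, at 0, 9.95 and 16.0 CPM.

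Of 9 signal carriers only the kinase Jak2 passed (1.34), and of 5 inhibitors Cish (1.29), which Stat5 is known to induce, and Tnfaip3 (1.43), a brake on NF-kB. Effector cytokines differed most, with 4 of 5 measured ones past 2-fold. Il13, which drives mucus production, was counted 30, 488 and 454 times (3.95), Il5, the eosinophil growth factor, 58, 427 and 341 times (2.82), Csf2 22, 143 and 115 times (2.62) and Areg 1382, 4408 and 3750 times (1.62). In the ILC2 gate, which uses Il5 and Il13 as markers, Il5 stood at 50, 326 and 187 UMIs and Il13 at 1, 134 and 164. Lonidamine over papain was -0.36 [-0.57, -0.15] for Il5 and -0.14 [-0.33, 0.05] for Il13 over the whole libraries. Il4 (0.62) did not pass, and Il9 was counted 0, 0 and 2 times.

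Genes whose level followed each of the 6 most closely were sought over 64 sums of a gate in a library, from 26 gates with at least 50 cells, as Pearson correlations of log2(CPM + 1) among 19500 genes. The sums share libraries and cell types, so the values describe likeness only. Il33 was most like Cbr2 and Mettl7a1 (both 0.85), Pdzk1ip1, Tmprss2 and Gsta4 (0.83 each). Tslp reached only 0.66 with Fzd10, then Tspan9 and Ctdspl (0.64 each) and Meox1 (0.63). For Il25 the closest were Ly6g6f and Sh2d7 (0.88 each), Hmx3 (0.84), and Trpm5 and Avil (0.82 each), the last pair being tuft markers. Il1rl1 was most like Ccl1 and Il13 (0.78 each), Foxp3 (0.72), Gm47050 (0.71) and Il5 (0.70), of which Il13 and Il5 are ILC2 markers. Crlf2 followed the leukocyte genes Fxyd5 (0.94), Srgn (0.93), Msn (0.92), Gpsm3 (0.91) and Tgfb1 (0.90). Il17rb was most like Cyp11a1 (0.70), Fbxl21 (0.69), Chdh (0.66), Nrgn (0.65) and Trpm5 (0.60).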

How the data were processed

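Single-cell RNA was counted in 3 pooled nasal mucosa libraries (PBS, papain, papain with lonidamine), 1 per group. The deposited values are raw UMI counts per gene and barcode, per the file headers. Tissue was dissociated with collagenases and Dispase and the cells captured with 10x Genomics 3′ chemistry, per the labels' protocols. Cell Ranger is given as version 2.1.1 with build GRCm39 per the submitters' processing notes and as 7.1.0 per the file headers. The authors' own Seurat analysis, named in the labels, was not used, and no source states if doublets had been taken out.

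A barcode was kept with at least 500 UMIs, at least 200 genes and a mitochondrial share of at most 20%, and 137, 188 and 262 Scrublet doublets (1.44%, 1.76% and 2.16%) were removed (scanpy 1.11.5). A cell entered a gate when it detected at least 3 markers and at least 50% of the list, above every other gate's share. The 1267 ties stayed ungated, and ILC2 also needed 0 UMIs of Cd3d, Cd3e and Cd3g. Of 36 gates 2 were empty. Sex was assigned from Xist and Y-linked UMIs. As a second view, 38 Leiden clusters (leidenalg 0.10.2, resolution 1, 2000 variable genes without the 6 genes studied) were named by the same markers.

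Counts were summed per library or gate and scaled to CPM. Log2 ratios add 0.5 counts to each sum, with 95% intervals from the conditional binomial distribution (scipy 1.17.1). Poisson and exact binomial (Clopper-Pearson) intervals, and floors of 3 counts for a count of 0, cover counting error only, and the interval method was tested on simulated data. With 1 library per group no test was made. Thinned shares drew each cell to 2000 UMIs and left out shallower cells. Ratios within gates needed 20 cells in each library and 20 UMIs over the pair, and counts past 2-fold needed 20 UMIs over the pair of libraries. Named were all 6 genes, pathway genes past 2-fold in papain over PBS, the shared chains, the 5 most alike genes of each (at least 100 UMIs; 1 of them is not reported here), gates with at least 5% of a gene's UMIs, and mature olfactory neurons. Other gates are named where an order or a direction turns on them. Genes and lists were chosen with earlier results of these data known. The cluster naming, compartments, Muc2 split and weighting by cluster were chosen after values were seen.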

Additional observations from a re-analysis of the deposited data

Results flagged for a closer look

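Tslp differed between lonidamine and papain in opposite directions in cells assigned to the sexes. The log2 ratio was 0.16 [-0.20, 0.53] in female cells (109 papain and 152 lonidamine UMIs) and -0.87 [-1.76, -0.09] in male cells (50 and 18 UMIs), a distance of 1.03. The difference was not tested, the female interval includes 0, and each sex is part of the same 2 pools.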

How the results depend on the processing

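Doublets kept, every deposited barcode and median-of-ratios scaling, which shifts all ratios by 0.02 (papain over PBS) and -0.04 (lonidamine over papain), moved none of the values they were run on, and papain over PBS kept its sign in 8 of 8 settings for each of the 6 genes over whole libraries. Values that moved past their counting interval follow as log2 ratios, papain over PBS unless lonidamine over papain is named. With every cell weighted equally Il33 was 1.85 and Crlf2 -0.066, and lonidamine over papain was 0.47 for Tslp, -0.74 for Il25 and 0.63 for Il1rl1. In female cells Tslp was 0.89, Il25 -1.44 and Crlf2 -0.19, and Il33 0.052 for lonidamine over papain. In male cells Il33 was 2.73, Tslp 2.19, Il25 -0.40, Il1rl1 2.56, Crlf2 -1.09 and Il17rb 0.46, and lonidamine over papain was 1.01 for Il33, -0.87 for Tslp, 0.041 for Il1rl1 and -0.39 for Crlf2. With gates weighted as in the PBS library Il33 was 1.82, Tslp 0.83, Il25 -1.57, Il1rl1 2.51 and Il17rb 0.26, and lonidamine over papain was 0.23 for Il33, 0.54 for Il1rl1 and -0.32 for Crlf2. With clusters weighted so, a setting added after seeing the data, Il33 was 1.07, Tslp 0.38, Il25 -2.39, Il1rl1 2.25, Crlf2 -0.69 and Il17rb 0.11. Lonidamine over papain was then 0.16 for Il33, -0.41 for Tslp, -0.013 for Il25, -0.31 for Crlf2 and 0.26 for Il17rb, and for Il1rl1 it reversed, from 0.35 to -0.15. The settings reweight cells by construction, and any other cause was not tested. Tslp stayed past 2-fold in 5 of 8 settings.

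The papain share of Il33 in sustentacular cells was 42.9% by clusters. That of Il25 in tuft cells was 50.8% at 40% of markers, 21% at 60% and 91.5% by clusters, and that of Il1rl1 in ILC2 29.9% at 60% and 59.8% by clusters. Within the leading gate, the thinned share of cells with a UMI gave 1.23 for Il33, where the level gave 1.88, and female cells gave 0.074 for Tslp, where all cells gave 0.83. The tuft and ILC2 gates have 17 and 11 PBS cells, under the minimum of 20, so nothing is read from their papain over PBS values: Il25 went from -2.92 to -0.54 by thinned share and -3.28 in female cells, and Il1rl1 from 1.11 to 0.41 by thinned share. Of the settings' values 104 stayed, 49 moved and 1 reversed.

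Depth limits Tslp and Il17rb, at 66 and 130 UMIs in the PBS library, and the gates under 20 cells. Pooling, unequal sex shares and the unknown number of animals limit every comparison. No paired analysis was possible because each group is 1 library.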
